A study of Mus musculus with 18 samples.

Results

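The genes described here code for the mitochondrial respiratory chain and the ATP synthase. Members were chosen by symbol alone, as every row whose symbol begins with Nduf, Uqcr, Atp5 or Cox4 to Cox8, together with Sdha, Sdhb, Sdhc and Sdhd, with a log2 value that averaged 3 or more over all libraries. Of 15402 genes in the table, 87 matched and 86 passed the filter, out of 13190 genes tested. Grouped by their symbols, 43 members belong to complex I, 4 to complex II, 8 to complex III, 14 to complex IV and 17 to complex V. Cox4i2 was left out with a mean of 0.49, and the members just inside the filter were Cox6a2 with a mean of 3.14, Cox7a1 with 4.35 and Cox6b2 with 4.47. A symbol places a gene by its naming history. Ndufa4 is now assigned to complex IV, Cox7a2l is known as a supercomplex assembly factor, and Atp5sl, which RefSeq lists as Dmac2, is known as an assembly factor of complex I.

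RNA was sequenced from 6 CD4+ T-cell populations of female mice, strain C57/BL6 Foxp3Timer Foxp3-IRES-GFP, with 3 libraries a population, each from a pool of 3 mice. All groups therefore carry both reporters, Timer and GFP, under the control of Foxp3, and all received 3% oxazolone on the skin of the abdomen, with the draining lymph nodes taken 5 days later. Timer is a fluorescent protein whose blue form matures to red, so its colour reports how recently and how persistently Foxp3 was transcribed. Tnaive were CD44lo GFP- Timer- cells and Teff were CD44hi GFP- Timer- cells. The 4 Timer+ GFP+ populations are labelled as de novo (Pers1), maturing (Pers2), mature (PAt) and decaying (Arrested) Foxp3 expressers. Pers1 and Pers2 together are called persistent. Since every mouse was sensitised, no population here is an unsensitised control.

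The respiratory chain passes electrons from NADH (complex I) and succinate (complex II) through ubiquinone, complex III and cytochrome c to oxygen at complex IV, and pumps protons across the inner mitochondrial membrane. The ATP synthase (complex V) lets the protons flow back and makes ATP. Most subunits are coded in the nucleus and a few in mitochondrial DNA, and activated T cells are known to build up both glycolysis and mitochondrial respiration. The mitochondrially encoded subunits were not analysed here.

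Promoters of nuclear respiratory genes are known for sites of the factors Nrf1, Yy1 and the ETS family (Gabpa among them). The letters GCGCATGC, AAGATGGC and CCGGAAGT were searched on both strands in RefSeq windows of GRCm38.p6, from 250 bases before to 50 after each start. On opposite strands GCGCATGC can overlap itself, as in the Atp5k window. RefSeq entries matched all 86 members, and 73 had a window. GCGCATGC was in 12 of these 73 (16.4%), against 5.92% of 10413 tested genes with a window and 2.71% of all 32851 windows. AAGATGGC was in 11 (15.1%, against 5.17% and 2.75%), and CCGGAAGT in 5 (6.85%, against 9.12% and 3.89%). With the matches in capitals (GCATGCGC is the Nrf1 match on the opposite strand) and the bases read 5′ to 3′ on the gene's strand, these are windows of a pair of members that were higher in the persistent populations (Atp5k, chr5:108434350-108434649, minus strand, and Sdhb, chr4:140961021-140961320, plus strand) and of a pair that were lower (Ndufa6, chr15:82354242-82354541, minus strand, and Atp5sl, chr7:25619164-25619463, plus strand, the first of 2 overlapping windows).
Atp5k: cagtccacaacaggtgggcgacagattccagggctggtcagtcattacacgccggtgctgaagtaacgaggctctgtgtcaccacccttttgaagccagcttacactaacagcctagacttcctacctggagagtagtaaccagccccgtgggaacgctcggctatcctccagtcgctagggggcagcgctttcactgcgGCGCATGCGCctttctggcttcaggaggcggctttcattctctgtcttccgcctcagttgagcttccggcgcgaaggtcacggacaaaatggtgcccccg
Sdhb: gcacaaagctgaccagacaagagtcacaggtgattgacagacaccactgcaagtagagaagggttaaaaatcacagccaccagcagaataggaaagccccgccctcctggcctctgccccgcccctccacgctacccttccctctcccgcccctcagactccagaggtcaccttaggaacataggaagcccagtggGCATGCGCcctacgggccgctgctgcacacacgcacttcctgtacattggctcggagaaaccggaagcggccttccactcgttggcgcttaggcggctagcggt
Ndufa6: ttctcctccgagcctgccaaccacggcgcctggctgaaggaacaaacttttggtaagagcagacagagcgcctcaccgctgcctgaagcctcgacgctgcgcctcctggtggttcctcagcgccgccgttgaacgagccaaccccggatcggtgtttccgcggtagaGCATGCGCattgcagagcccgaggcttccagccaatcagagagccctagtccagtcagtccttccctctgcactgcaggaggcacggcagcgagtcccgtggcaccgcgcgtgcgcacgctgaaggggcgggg
Atp5sl: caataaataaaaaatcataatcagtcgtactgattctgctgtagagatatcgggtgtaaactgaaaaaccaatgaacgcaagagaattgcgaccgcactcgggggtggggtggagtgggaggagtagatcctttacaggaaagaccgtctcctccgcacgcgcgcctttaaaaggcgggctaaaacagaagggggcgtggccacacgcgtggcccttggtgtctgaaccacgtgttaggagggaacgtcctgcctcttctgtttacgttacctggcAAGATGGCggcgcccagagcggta
The first 3 windows hold the Nrf1 letters and the last holds the Yy1 letters. Among these windows, the Nrf1 letters are in those of genes that moved in opposite directions (Atp5k and Sdhb higher, Ndufa6 lower). For persistent against PAt and Arrested, the median log2 fold change was 0.45 for the 12 members with the Nrf1 letters and 0.45 for the 61 without. It was 0.52 for the 11 with the Yy1 letters and 0.44 for the 62 without, and 0.21 for the 5 with the ETS letters and 0.45 for the 68 without. A match is a description of the sequence, not a bound site.

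Values are log2 of normalised counts as deposited, without a correction for gene length, so a level is compared between populations and not between genes. Read counts were not analysed here, and depth is unknown. The labels of the populations were checked against defining genes. Foxp3 lay between 14.36 and 14.85 in all Timer+ libraries and between 10.38 and 11.38 in Tnaive and Teff, and Cd4 between 14.47 and 15.70 in all 18. The Teff libraries stood apart in markers of other cells. All 3 listed markers of plasmacytoid dendritic cells were in the table and their summed level was 11.79 to 12.30 in Teff against 10.41 to 11.11 elsewhere, with Siglech at 10.16 to 10.93 in Teff and at 3.53 to 4.57 elsewhere. The 5 macrophage or monocyte markers summed to 10.26 to 10.58 in Teff and 7.93 to 9.59 elsewhere, with Cd14 near 0 in every library (0.45 to 0.60). Of these markers, Itgam was not highest in Teff, at 8.24 to 8.41 against 8.35 to 8.54 in Tnaive and 8.80 to 8.95 in Pers1. The NK-cell markers (2 of 3 in the table) summed to 8.05 to 8.15 in Teff and 5.05 to 6.64 elsewhere, and both CD8 markers to at least 11.51 in Teff and 9.65 to 10.70 elsewhere. B-cell markers did not set Teff apart from PAt or Arrested. They summed to 11.48 to 12.15 in Teff, 11.60 to 11.83 in PAt, 11.22 to 11.51 in Arrested and 9.48 to 9.90 in Tnaive. The part of other cells in the members' values in Teff was not tested, and this holds for each comparison with Teff. Bulk RNA cannot tell fewer cells of a type from less RNA per cell.

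Of the comparisons made, the one with the largest median change of the members was persistent against PAt and Arrested. It sets cells with blue Timer from recent Foxp3 transcription beside cells in which blue had fallen or was lost. Of 86 members, 73 rose in the persistent populations, 3 fell and 10 did not pass the test (limma, adjusted p under 0.05), against 35.9% of all tested genes called higher and 35.1% called lower. The median log2 fold change of the members was 0.44 (1.36-fold), from -0.51 to 0.94, and the median over all tested genes was -0.013. No member passed the study's further threshold of an absolute log2 fold change over 1, which 7.51% of all genes passed. In 63 members all 6 persistent libraries lay above all 6 PAt and Arrested libraries, and in 2 they lay below (24.0% and 21.8% of all genes). By mean, 62 members were highest in Pers1, 12 in Pers2, 6 in Tnaive, 3 in Teff, 3 in Arrested and none in PAt.

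The rise was seen in every library. As the median over the members of each library's deviation from the gene's mean, Pers1 libraries stood at 0.27 to 0.35 and Pers2 libraries at 0.19 to 0.25 on the log2 scale. Teff libraries stood at -0.06 to -0.01, PAt at -0.19 to -0.12, Arrested at -0.21 to -0.09 and Tnaive at -0.21 to -0.13. The same median over all genes lay between -0.015 and -0.002 in every library. Other genes moved with this difference. The cycling markers Mki67 and Top2a summed to 15.10 to 15.40 in the persistent libraries, 12.16 to 12.61 in PAt and Arrested, 13.33 to 13.41 in Teff and 9.81 to 10.03 in Tnaive. All 5 B-cell markers were in the table with none at 0, and summed to 10.47 to 10.74 in the persistent libraries and 11.22 to 11.83 in PAt and Arrested. Both CD8 markers summed to 9.65 to 10.18 and 10.41 to 10.70. Of the macrophage or monocyte list, only Itgam separated, higher in the persistent libraries (8.12 to 8.95 against 6.17 to 6.74). Lyz2 (6.45 to 7.93 against 6.69 to 8.16) and Csf1r (4.13 to 5.08 against 4.07 to 4.97) overlapped, as did Adgre1 and Cd14. The part of any of these in the members' difference was not tested.

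**Figure D1:**
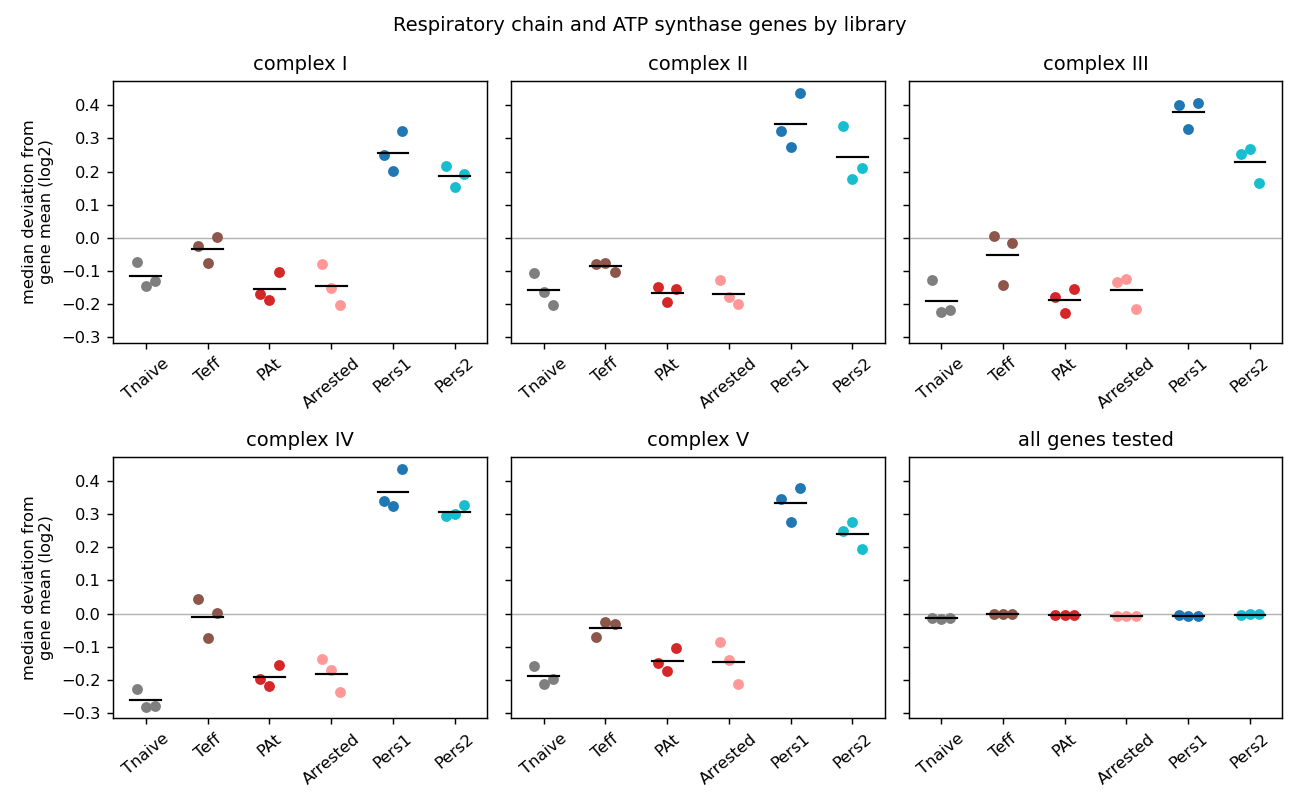
Median deviation of the members of each complex, and of all genes tested, from the gene's mean over 18 libraries (log2), with 1 point a library and a bar at the mean of the 3 libraries of a population. In each of the 5 complexes all Pers1 and Pers2 points lie above all other points, while the all-gene medians lie within 0.02 of 0.

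In complex I, which takes electrons from NADH, 36 of 43 genes rose, 1 fell and 6 did not pass (median 0.40). The genes with the highest folds were both small accessory subunits by name. Ndufa4 stood at 11.96, 11.84 and 12.05 in Pers1 and 11.94, 11.71 and 11.86 in Pers2, against 11.05, 11.20 and 11.08 in PAt and 11.08, 10.90 and 11.02 in Arrested. The groups did not overlap, and the log2 fold change was 0.84 ± 0.05 (SE; limma adjusted p = 1.83e-12). Ndufa1 followed with 0.74 ± 0.06 (limma adjusted p = 1.43e-09). Of the 7 nuclear core genes 5 rose and none fell, with a median of 0.17, while 26 of the 29 accessory genes rose, with a median of 0.45. Ndufv2, at 0.53, and Ndufs8, at 0.53, both iron-sulfur proteins, rose, and Ndufs3 (0.17) and Ndufs1 (0.12) also passed. Ndufs1 no longer passed after centring (0.057, limma adjusted p = 0.161) or quantile normalisation (0.060, limma adjusted p = 0.144). Ndufv1, which binds NADH, had a log2 fold change of 0.07 ± 0.04 (limma adjusted p = 0.174, and 0.0463 without Arrested replicate 2) and Ndufs7, the iron-sulfur protein next to ubiquinone, one of -0.13 ± 0.07 (limma adjusted p = 0.107). Ndufs7 was called lower after centring (-0.20), after quantile normalisation (-0.21), without PAt replicate 2 (-0.18) and without Arrested replicate 3 (-0.20), with limma adjusted p from 0.00847 to 0.0315. Of the 7 assembly factors 5 rose (median 0.25).

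**Figure D2:**
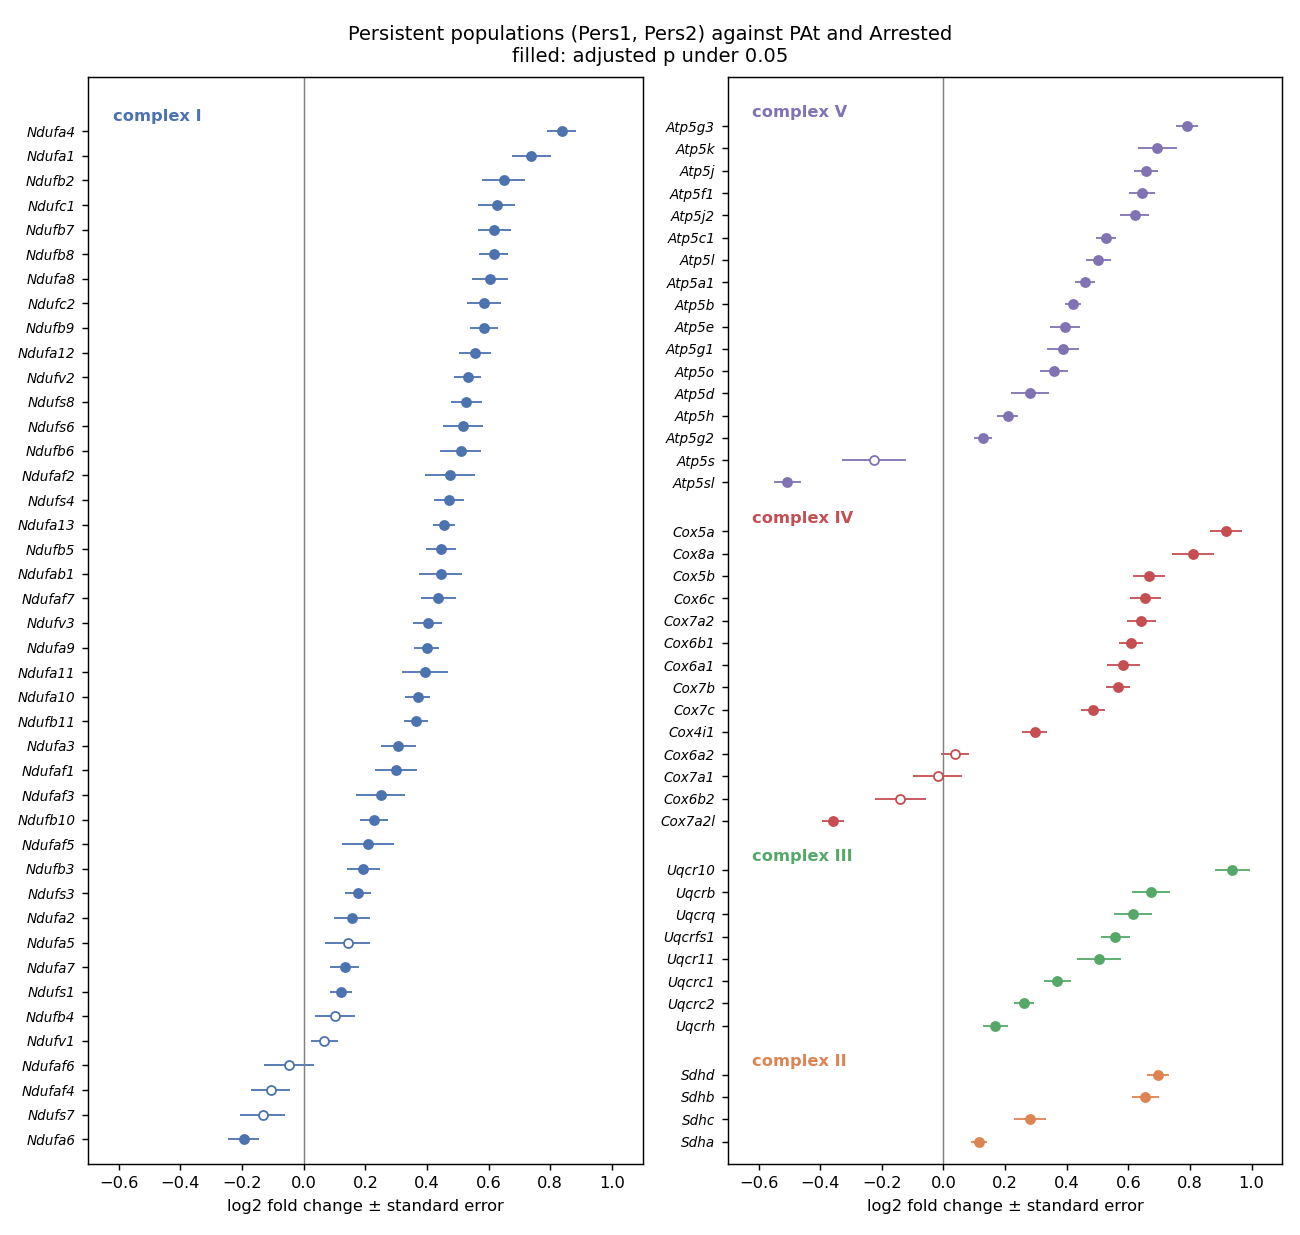
Log2 fold change of members between the persistent populations (6 libraries) and PAt and Arrested (6 libraries), by complex, with standard errors from limma. Filled points passed an adjusted p of 0.05. Most points lie to the right of 0, and the filled points to the left of 0 are Atp5sl, Cox7a2l and Ndufa6.

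Complex II, the succinate dehydrogenase shared with the citric acid cycle, has 4 subunits and all 4 rose, by unequal amounts. Sdhd, a membrane anchor, stood at 11.55, 11.58 and 11.62 in Pers1 and 11.57, 11.51 and 11.48 in Pers2, against 10.85, 10.96 and 10.86 in PAt and 10.88, 10.77 and 10.81 in Arrested. Its log2 fold change was 0.70 ± 0.04 (limma adjusted p = 2.50e-13) with no overlap. Sdhb, the iron-sulfur subunit whose promoter is printed above, rose by 0.65 and the other anchor, Sdhc, by 0.28. Sdha, the flavoprotein that oxidises succinate, lay at 12.82 to 12.93 in the persistent libraries and 12.71 to 12.78 in PAt and Arrested, a log2 fold change of 0.11 ± 0.03 (limma adjusted p = 0.000768). After centring each library on its median gene, the change of Sdha was 0.050 and no longer passed (limma adjusted p = 0.115).

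All 8 genes of complex III rose (median 0.53). Uqcr10, a small subunit, had the highest fold of all members. It stood at 11.11, 11.12 and 11.20 in Pers1 and 11.21, 11.11 and 11.09 in Pers2, against 10.18, 10.15 and 10.25 in PAt and 10.30, 10.36 and 9.98 in Arrested, a log2 fold change of 0.94 ± 0.06 (limma adjusted p = 5.09e-12). Teff lay between at 10.61, 10.63 and 10.62, and Tnaive at 10.24, 10.23 and 10.04 was level with PAt and Arrested. Uqcrb, which contacts ubiquinone, rose by 0.67 and Uqcrfs1, the Rieske iron-sulfur protein, by 0.56. The core proteins Uqcrc1 and Uqcrc2 rose by 0.37 and 0.26, and the hinge protein Uqcrh had the smallest change, 0.17.

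In complex IV, cytochrome c oxidase, 10 of 14 genes rose, 1 fell and 3 did not pass (median 0.57). Cox5a, which has no paralog among the members, stood at 11.49, 11.54 and 11.68 in Pers1 and 11.45, 11.39 and 11.58 in Pers2. Its values were 10.56, 10.59 and 10.64 in PAt and 10.72, 10.54 and 10.57 in Arrested. The log2 fold change was 0.92 ± 0.05 (limma adjusted p = 1.67e-12), with no overlap. Cox8a, the smallest subunit, rose by 0.81, Cox5b by 0.67 and Cox4i1 by 0.30. The 3 genes that did not pass, Cox6a2, Cox6b2 and Cox7a1, are paralogs known from heart and skeletal muscle or testis. They have the lowest means of all members (3.14, 4.47 and 4.35), and their read counts were not analysed. Their log2 fold changes were 0.04, -0.14 and -0.02, and those of Cox6a2 and Cox7a1 changed sign with the scaling of the libraries. Cox6b2 was called lower after centring (-0.21, limma adjusted p = 0.0334) and without Pers2 replicate 3 (-0.19, limma adjusted p = 0.0429).

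In complex V, the ATP synthase, 15 of 17 genes rose, 1 fell and 1 did not pass (median 0.42). The catalytic subunit beta (Atp5b) rose by 0.42, its partner alpha (Atp5a1) by 0.46 and the rotor shaft gamma (Atp5c1) by 0.53. Atp5g3, for subunit c of the rotor ring, stood at 12.69, 12.78 and 12.81 in Pers1 and 12.74, 12.65 and 12.66 in Pers2, against 11.91, 11.88 and 11.97 in PAt and 12.05, 11.91 and 11.86 in Arrested. The log2 fold change was 0.79 ± 0.04 (limma adjusted p = 3.82e-14). Atp5k, subunit e, rose by 0.69. Atp5s, coupling factor B, had a log2 fold change of -0.23 ± 0.10 (limma adjusted p = 0.0571). It was called lower after centring (-0.29), with only the populations compared in the fit, and without Pers2 replicate 2, PAt replicate 2, Arrested replicate 1 or Arrested replicate 2, with limma adjusted p from 0.0147 to 0.0480.

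The 3 members that fell include Cox7a2l and Atp5sl, both known for assembly rather than as catalytic subunits. Atp5sl stood at 10.33, 10.36 and 10.32 in Pers1 and 10.30, 10.51 and 10.22 in Pers2, against 10.80, 10.74 and 10.83 in PAt and 10.95, 10.88 and 10.87 in Arrested, a log2 fold change of -0.51 ± 0.04 (limma adjusted p = 2.16e-09). It was highest in Tnaive (11.07, 11.09 and 11.01). Cox7a2l stood at 13.06, 12.99 and 13.05 in Pers1 and 13.00, 13.11 and 13.06 in Pers2, against 13.34 to 13.49 in PAt and Arrested, 13.32 to 13.41 in Teff and 13.61 to 13.68 in Tnaive. Its log2 fold change was -0.36 ± 0.03 (limma adjusted p = 7.49e-09), and it was the only member called lower in each of persistent against PAt and Arrested, persistent against Teff, Teff against Tnaive, and PAt and Arrested against Tnaive. Ndufa6, an accessory subunit of complex I, changed by -0.19 ± 0.05 (limma adjusted p = 0.00159) with overlapping libraries. The number that fell depended on the library scaling and on 1 library. It was 7 after centring on the median (42.1% of all genes), 5 after quantile normalisation (37.8% of all genes) and 5 without PAt replicate 2.

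Some subunits are coded by paralogs, and the difference between paralogs within a library is not moved by a shift of a whole library. Of 10 pairs listed, 7 had both genes tested. In each the within-library difference of log2 values shifted between the 6 persistent and the 6 PAt and Arrested libraries with no overlap (exact permutation test over 924 assignments, two-sided p = 0.00216, the smallest it can give and unchanged by adjustment over the 7 pairs). The test took libraries as freely exchangeable and did not keep replicate numbers together. The Atp5g pairs share their genes, so the 7 are not all separate results. For subunit c of the ATP synthase, Atp5g3 gained 0.40 on Atp5g1 and 0.66 on Atp5g2, and Atp5g1 gained 0.26 on Atp5g2. The difference of Atp5g2 minus Atp5g3 was 0.43 to 0.62 in PAt and Arrested and -0.23 to -0.02 in the persistent libraries. Cox7a2 gained 1.00 on Cox7a2l, from -3.12 to -2.82 in PAt and Arrested to -2.03 to -1.78 in the persistent libraries. The shifts of Cox6a1 against Cox6a2 (0.55), Cox6b1 against Cox6b2 (0.75) and Cox7a1 against Cox7a2 (-0.66) rest mostly on the abundant paralog. The other paralog of each pair is at low values throughout. For Cox6b1 and Cox6b2 the log2 fold changes were 0.61 and -0.14.

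Pers2 against Pers1 had 0 members called higher and 4 called lower (limma), against 6.02% and 4.56% of all genes, and no member passed the log2 fold change of 1 (0.19% of all genes). The 4 of 86 lower are near the share of all genes. At an unadjusted p under 0.05, 13 were lower (15.1%, against 11.2% of all genes) and 0 higher, and without the variance trend 3 were lower (3.77% of all genes) and 0 higher. The median was -0.08, with 69 of 86 members below 0, against 6542 of all 13190 genes. The 4 genes were Atp5b, Atp5a1, Uqcrfs1 and the assembly factor Ndufaf6. Atp5b stood at 14.82, 14.83 and 14.84 in Pers1 and 14.60, 14.55 and 14.55 in Pers2, a log2 fold change of -0.27 ± 0.04 (limma adjusted p = 0.000152), and all 6 of these libraries lay above the 12 others, which ran from 14.24 to 14.43. Atp5a1 changed by -0.21, Uqcrfs1 by -0.23 and Ndufaf6 by -0.36. The count was 7 with the replicate number as a block, when 6.40% of all genes were lower. It was 2 without Pers1 replicate 3, Pers2 replicate 1 or Pers2 replicate 2.

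Arrested against PAt had 0 members called higher and 0 lower (limma, also 0 without the variance trend), against 2.07% and 2.97% of all genes, and none past the log2 fold change of 1 (0.121% of all genes). At an unadjusted p under 0.05 there were 5 members (5.81%), against 18.1% of all genes. The median was 0.013, from -0.20 to 0.21, and the 95% intervals of all 86 members lay within 0.5 of 0 on the log2 scale, with bounds from -0.37 to 0.44.

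Among Timer- cells, activated Teff, whose libraries also held the markers of other cells given above, against Tnaive showed a smaller and more mixed shift. Of 86 members 39 rose, 8 fell and 39 did not pass (limma), against 31.3% of all genes higher and 27.7% lower, with a median of 0.14. Of the members other than Cox6a2, described next, none passed the log2 fold change of 1, which 11.2% of all genes passed. Cox6b1, a subunit of complex IV, stood at 11.67, 11.65 and 11.79 in Teff and 11.11, 11.24 and 11.14 in Tnaive, a log2 fold change of 0.54 ± 0.06 (limma adjusted p = 3.52e-08). Ndufaf4, an assembly factor of complex I, was the member that fell most, from 9.93, 9.90 and 10.12 in Tnaive to 9.32, 9.31 and 9.42 in Teff, a log2 fold change of -0.63 ± 0.09 (limma adjusted p = 3.74e-06). Every Timer+ library was also below Tnaive, at 9.01 to 9.53. After centring, which moved the median over all genes from 0.005 to -0.08, 21 members were higher and 12 lower (24.4% and 14.0%), against 26.0% and 36.2% of all genes, so the share higher no longer exceeded that of all genes. Without Tnaive replicate 1 the number lower was 4.

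Cox6a2 is the muscle form of a complex IV subunit and is the member whose Teff values stood apart. It stood at 4.62, 4.59 and 4.50 in Teff and between 2.82 and 3.00 in the other 15 libraries, a log2 difference of 1.72 from Tnaive. The mean of Cox6a2 was 3.14 over all libraries and 2.86 without Teff, so it passed the filter on low values only through Teff. Its Teff values are therefore a description, although it is counted among the 39 members higher in Teff than in Tnaive, the 3 lower in the persistent populations than in Teff, and the 2 below 0 in the interaction. Values near 2.8 are the lowest this gene takes, so the fold rests on a group at low values whose read counts were not analysed. The paralog of other tissues, Cox6a1, lay at 11.31 to 11.48 in Teff and 11.33 to 11.49 in Tnaive. The Teff libraries that held Cox6a2 also held Siglech at 10.78, 10.93 and 10.16 and Ccr9 at 9.95, 9.80 and 9.19 (5.71 to 8.49 elsewhere). The other listed marker of plasmacytoid dendritic cells, Bst2, overlapped, at 10.82 to 11.10 in Teff and 10.34 to 10.91 elsewhere. The part of such cells in the value of Cox6a2 was not tested.

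**Figure D3:**
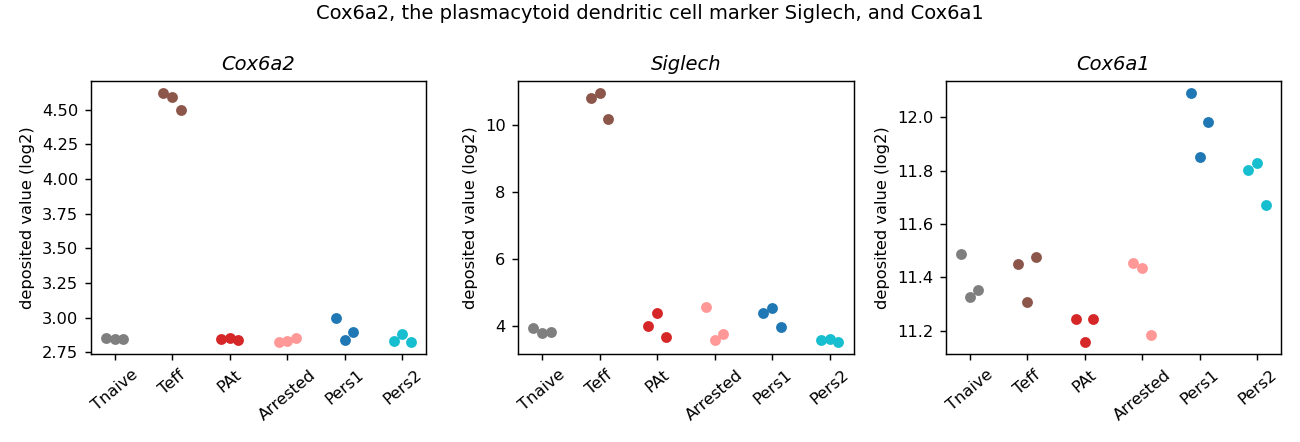
Deposited log2 values of Cox6a2, of the plasmacytoid dendritic cell marker Siglech and of Cox6a1 in each of the 18 libraries (1 point a library, axes not starting at 0). Cox6a2 and Siglech are high in the 3 Teff libraries and low in the other 15, while Cox6a1 is high in Pers1 and Pers2.

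The persistent populations were also above Teff. Of 86 members 66 rose, 3 fell and 17 did not pass (limma), against 29.8% of all genes higher and 28.9% lower, with a median of 0.32. None other than Cox6a2 passed the log2 fold change of 1 (8.31% of all genes). Cox5a and Cox7a2 rose most, both by 0.69, and Atp5sl fell by 0.60. In PAt and Arrested against Tnaive 13 members rose, 11 fell and 62 did not pass, against 26.9% of all genes higher and 23.8% lower, with none past the log2 fold change of 1 (7.9% of all genes). The median was 0.012, and it was -0.07 after centring, when 5 were higher and 23 lower (5.81% and 26.7%), against 21.2% and 34.99% of all genes. Ndufb7, an accessory subunit of complex I, rose by 0.36, and Ndufaf4 and Ndufaf6 fell by 0.65 and 0.37. These comparisons share libraries with each other and with those above, so their counts are not independent.

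Whether the shift within Timer+ cells differed from that between Teff and Tnaive was tested as an interaction in the same fit. The difference (persistent minus PAt and Arrested, minus Teff minus Tnaive) was called above 0 in 52 members and below 0 in 2, against 23.2% and 25.5% of all genes, with a median of 0.29. None other than Cox6a2 had a difference over 1 in size, against 8.42% of all genes. This was not particular to the members. Above 0 were also 46 of 77 mitochondrial ribosomal genes (median 0.31, 1 below), 28 of 37 proteasome genes (0.28, 0 below) and 52 of 81 cytosolic ribosomal genes (0.21, 0 below). The median of the cytosolic ribosomal genes fell in both comparisons, by less in Timer+ cells (-0.32) than in Timer- cells (-0.56). Cox5a differed by 0.70 ± 0.09 (limma adjusted p = 1.43e-06), with a log2 fold change of 0.92 in Timer+ cells and 0.21 in Timer- cells. Cox7a2 differed by 0.65, with 0.64 and -0.01. Atp5b and Ndufa10, an accessory subunit of complex I, were called in opposite directions, Atp5b at 0.42 in Timer+ and -0.10 in Timer- cells and Ndufa10 at 0.37 and -0.16. Atp5b stood at 14.29, 14.26 and 14.29 in Teff and 14.43, 14.36 and 14.36 in Tnaive.

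**Figure D4:**
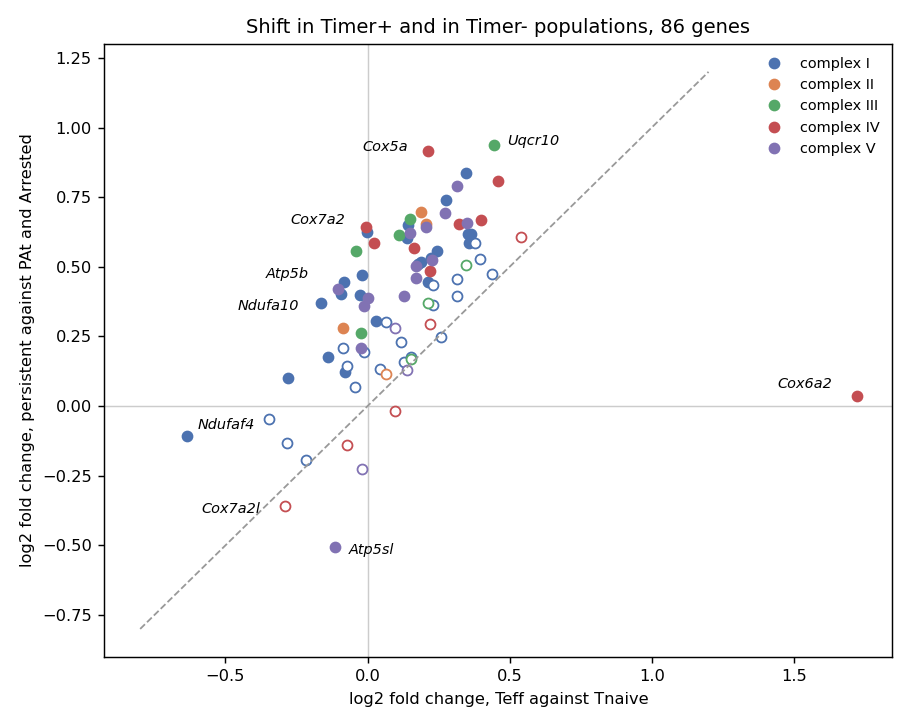
Log2 fold change of Teff against Tnaive (horizontal) and of the persistent populations against PAt and Arrested (vertical) for the 86 members, coloured by complex. Filled points differ between the shifts (limma adjusted p under 0.05), and the dashed line marks equal shifts. Of the filled points 52 lie above the line, and 2, Cox6a2 and Atp5sl, below it.

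Other genes of the pathway were counted in the comparison of the persistent populations with PAt and Arrested. Of 40 genes for cytochromes c and c1 and for assembly factors outside the rule, 22 rose and 3 fell (median 0.19). Among them Cox17, a copper chaperone of complex IV, rose by 0.88, Atpif1, an inhibitor of the ATP synthase, by 0.76 and cytochrome c (Cycs) by 0.67, while Sdhaf1, an assembly factor of complex II, fell by 0.70. Of 18 genes for pyruvate dehydrogenase and the citric acid cycle 16 rose and 1 fell (median 0.26), with Idh3a at 0.85 and Fh1 at 0.66. Of 15 glycolytic genes 13 rose and 2 fell (median 0.89), and 7 passed the log2 fold change of 1. Triose phosphate isomerase (Tpi1) rose by 1.56, and Ldhb, the lactate dehydrogenase subunit of oxidative tissues, fell by 1.27.

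Of 19 regulators of mitochondrial genes tested 4 rose and 12 fell (median -0.28). Myc fell by 1.68, the mitochondrial helicase Peo1 by 0.81, and the coactivators Pprc1 and Ppargc1b by 0.77 and 0.69. Of the factors whose letters were searched in the promoters, Nrf1 rose by 0.12 and Gabpa by 0.22, and Yy1 had a log2 fold change of 0.11 (limma adjusted p = 0.0519). Gabpa shares 397 bases of exon with Atp5j on the opposite strand. Among large complexes used for comparison, 55 of 77 mitochondrial ribosomal genes rose and 7 fell (median 0.30), 34 of 37 proteasome genes rose and 1 fell (median 0.51), and 4 of 81 cytosolic ribosomal genes rose and 65 fell (median -0.32).

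**Figure D5:**
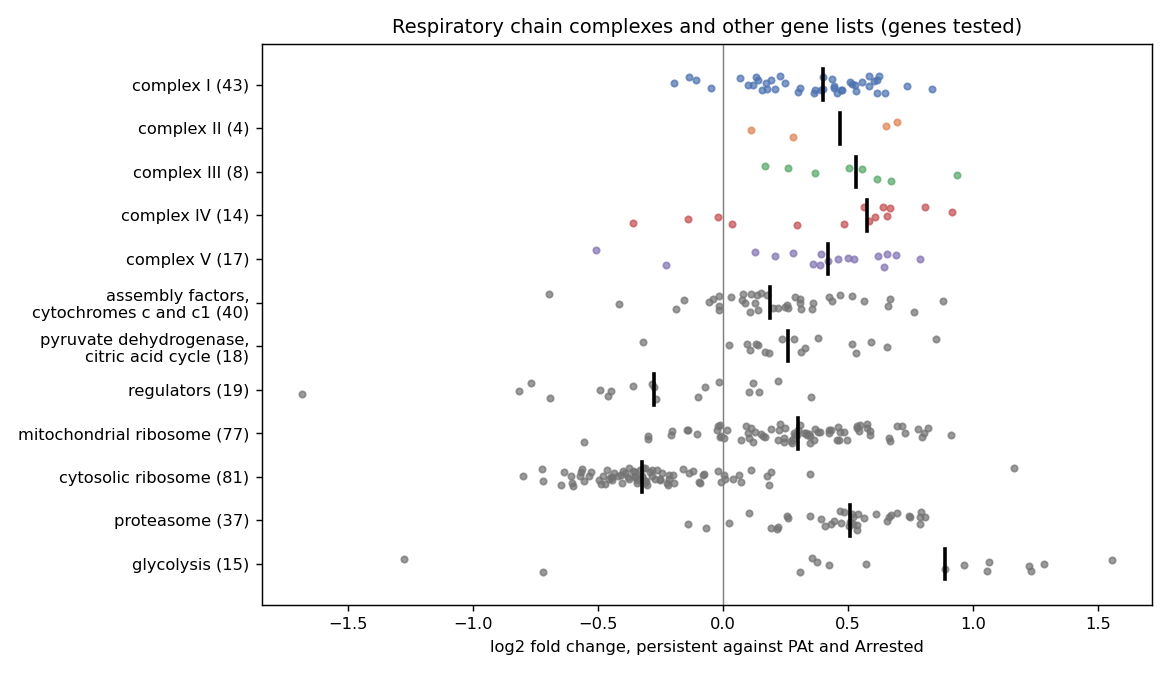
Log2 fold change of persistent against PAt and Arrested for each gene of the 5 complexes and of 7 other lists, with the number tested in parentheses, 1 point a gene and a black bar at the median. Medians of the 5 complexes lie between 0.40 and 0.57, glycolysis at 0.89, regulators at -0.28 and cytosolic ribosomal genes at -0.32.

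Most members have a short transcript. Taking the middle one of each gene's protein-coding transcripts in GENCODE vM21 ranked by length (the longer of the middle pair where their number is even), the median was 731 bases over the 85 members found there, against 2406 over 11883 tested genes. Across genes, which are not independent replicates, the Spearman correlation of this length with the log2 fold change of this comparison was -0.20 over the members and -0.13 over all genes. The 867 tested genes of at most 731 bases had a median log2 fold change of 0.09, against 0.51 for the 43 members of that length and 0.38 for the 42 longer members. Members lay on 19 chromosomes. In 29 an exon overlaps an exon of another gene, and in 17 the longest transcript has an annotated pseudogene at 95% identity or more over at least 200 bases, with up to 8 for Atp5l, so reads may be shared. The median log2 fold change was 0.44 for the 17 with such a copy and 0.44 for the other 69. These 69 include Atp5sl, which was not found in GENCODE under this symbol and so was not searched.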

How the data were processed

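RNA-seq values of 18 libraries, 6 sorted populations with 3 replicates each, were analysed. Per the labels and the paper, the authors prepared stranded mRNA libraries and aligned paired reads to mm10. The submitters' processing notes name CASAVA 1.8.2, FastQC 0.11.2, TopHat2 2.0.9 and DESeq2. Whether counting used strand is not given in the sources used here. Values deposited by the authors are log2 normalised counts of 15402 genes, in the form of DESeq2's regularised log transform, which draws folds of genes with few reads towards 0. The values were used as deposited. Depth is unknown, and precision rests on the spread between replicates. The names Pers1, Pers2, PAt and Arrested follow the series design, which ties them to the sample titles.

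The 13190 genes with a mean of at least 3 were fitted with limma 3.58.1 in R 4.3.3 (population as the only factor, trend on mean expression, 12 residual degrees of freedom, Benjamini-Hochberg adjustment over all of them), after the script had been tested on simulated data. All adjusted p-values are from limma. Members and lists were chosen with earlier results of these data known. Genes named were, in each complex, the pair with the highest and the pair with the lowest fold of persistent against PAt and Arrested, core subunits (1 is not reported or drawn by name here), listed paralogs, any member past a log2 fold change of 1, and up to 4 genes of a list. Ndufaf4, Ndufaf6, Ndufa10, Ndufb7, Tpi1, Ldhb, Nrf1, Gabpa, Yy1 and other single genes outside this were named after their values were seen.

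Populations were sorted in parallel from pools per the description, without stating that 1 number marks 1 pool. Deviations from population means correlated with a median of 0.166 over 45 pairs of the same number (-0.206 to 0.436, 32 above 0.1) and -0.064 over 90 pairs of different numbers. The replicate block was run as an alternative, as were no filter, 2 other scalings, a fit of only the populations compared, no variance trend, and leaving out each library. P-values measure the spread between these pools. Exons and transcripts came from GENCODE vM21 and promoters from RefSeq, GRCm38.p6. Read counts and the mitochondrially encoded genes were not analysed here.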

Additional observations from a re-analysis of the deposited data

Results flagged for a closer look

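The shift of the members within Timer+ cells (persistent against PAt and Arrested) differed from the shift within Timer- cells (Teff against Tnaive) by the interaction test in limma. The test was passed by 52 members with a higher and 2 members with a lower shift in Timer+ cells, against 23.2% and 25.5% of all genes. Most mitochondrial ribosomal, cytosolic ribosomal and proteasome genes also passed with a higher shift, as given above. For the cytosolic ribosomal genes, by their medians, this was a smaller fall and not a larger rise. Among the members named for their size or direction, the difference in log2 fold change was 0.70 for Cox5a, 0.65 for Cox7a2, 0.53 for Ndufa10, 0.52 for Atp5b, -0.39 for Atp5sl and -1.68 for Cox6a2. Atp5b and Ndufa10 passed the test in opposite directions in both comparisons taken alone. Cox6a2 passed the filter on low values only through the Teff libraries, so its value is a description. These libraries also held markers of plasmacytoid dendritic cells, and of other cells, whose part was not tested. Groups of 3 libraries were too small to test a single library for standing apart.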

How the results depend on the processing

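For persistent against PAt and Arrested the number of members higher was 67 to 74 under all alternatives run, and their median log2 fold change 0.38 to 0.45. In the settings with no single library left out, 30.4% (centring) to 36.6% (replicate block) of all genes were higher. The number lower was 7 after centring libraries on the median gene (42.1% of all genes) and 5 after quantile normalisation (37.8%). It was 3 to 5 with a library left out (5 without PAt replicate 2). For Pers2 against Pers1 the number lower was 7 with the replicate block (6.40% of all genes) and 2 to 3 with a library left out. The block moved no other count of members by over 1.5 times. For Teff against Tnaive the number higher was 21 after centring (26.0% of all genes), and the number lower was 4 to 8 with a library left out (4 without Tnaive replicate 1). For persistent against Teff the number lower was 5 after centring (35.1% of all genes). For PAt and Arrested against Tnaive 5 were higher and 23 lower after centring (21.2% and 34.99% of all genes), and 17 lower after quantile normalisation (35.01% of all genes). Centring moved medians over all genes by under 0.1 on the log2 scale, and quantile normalisation moved that of Teff against Tnaive from 0.005 to -0.10. The causes were not tested.

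For persistent against PAt and Arrested the sign changed for Cox6a2 (-0.028 after centring), Cox7a1 (0.012 after quantile normalisation, -0.067 to 0.013 with a library left out) and Ndufv1 (-0.0059 after quantile normalisation). None of the 3 passed as reported, and Ndufv1 passed without Arrested replicate 2 (limma adjusted p = 0.0463). Of 1074 values of named members under alternatives, 1037 kept direction and call, 18 lost the call, 13 gained it and 6 changed sign. Uqcrfs1 and Ndufaf6 lost theirs for Pers2 against Pers1 under 6 of 12 alternatives each. The 7 paralog differences kept direction and call under quantile normalisation, the replicate block and with each library left out. Unknown depth limits what can be said of Cox6a2, Cox6b2 and Cox7a1, and calls rest on 3 pools a population.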
